A study of Mus musculus with 18 samples.

Results

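The Hox cluster genes of the mouse were followed through peak lists of trimethylated and acetylated lysine 27 of histone H3 (H3K27me3 and H3K27ac) from bone marrow-derived macrophages (BMDM). The members were the protein-coding genes of GENCODE vM21 whose symbol is Hox, a cluster letter from a to d and a number. They are 39 of the 21951 protein-coding genes of that annotation, and 38 are described here, with 10 in HoxA on chromosome 6, 10 in HoxB on chromosome 11, 9 in HoxC on chromosome 15 and 9 in HoxD on chromosome 2. Coordinates are those of mm10 (GRCm38), counted from 1.

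Hox genes encode homeodomain transcription factors that assign position along the body axis. Within a cluster the genes lie in order of their paralog number, and genes of low number (anterior) are used earlier and further forward in the embryo than genes of high number (posterior). Away from the cells that use them, the clusters are textbook targets of Polycomb repressive complexes, whose EZH enzymes place H3K27me3. H3K27ac marks active promoters and enhancers, and the same lysine cannot carry both marks at once. In blood formation, HoxA and HoxB genes are known for their use in stem and progenitor cells.

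The BMDM were unstimulated and came from wild-type mice (WT, labelled strain C57BL6), from dystrophic mdx mice (labelled Dmdmdx-4Cv, a dystrophin mutant) and from mdx mice that also lacked Toll-like receptor 4 (mdxTLR4-/-, labelled strain Bl6/Bl10). All were grown from marrow in medium with L929 cell supernatant, which supplies M-CSF. Both defects are germline, so marrow and host alike carried them. H3K27me3 was profiled by native ChIP-seq in 2 ChIP and 2 input libraries per genotype. For H3K27ac there were 2 ChIP libraries of WT, 2 of mdx, 1 of mdxTLR4-/- and 1 input whose genotype the labels do not give. The age labels run from 6 to 23 weeks, rising from library to library, so that labelled age and genotype cannot be told apart. The Bl6/Bl10 label goes with mdxTLR4-/- alone, so labelled strain and loss of Toll-like receptor 4 cannot be told apart either. The study's methods place its WT, mdx and TLR4-/- mice on the C57BL/6J background. Where a genotype had 2 ChIP libraries of a mark, they had been merged before peaks were called, which leaves 1 list per mark and genotype. The H3K27ac list of mdxTLR4-/- rests on 1 library. No spread between libraries can therefore be given, no genotype difference below has a replicate check, and none carries a p-value. Intervals cover counting error only, and reads are not independent molecules.

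The H3K27me3 lists hold 28143 (WT), 41780 (mdx) and 36488 (mdxTLR4-/-) peaks with 8331331, 10199918 and 7358418 reads. The H3K27ac lists are far thinner, with 274020, 191629 and 168487 reads in 15665, 12076 and 12493 peaks, and a median of 10, 10 and 8 reads per peak. Of 12 macrophage markers, 10 had H3K27ac within 1 kb of the start or in the 5 kb upstream in each genotype. Spi1, the lineage factor PU.1, had 108, 96 and 95 reads of H3K27ac in peaks near its start. Among T cell, B cell, neutrophil, erythroid and fibroblast markers, 6 in each list, no list had more than 1 gene with H3K27ac. The peak lists do not show whether Dmd or Tlr4 was disrupted, so the genotype labels were not checked here.

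H3K27me3 lay over most of the length of the 4 clusters in every genotype. A gene was designated Increased when peaks covered at least 50% of a window from 5 kb upstream of its start to 1 kb past its end. By this rule the WT list gave 37 of the 38 Hox genes (97.4%), the mdx list 37 (97.4%) and the mdxTLR4-/- list 36 (94.7%). Across all protein-coding genes the shares were 16.7%, 16.4% and 14.9%. The median Hox window was covered over 100% of its length in each genotype, against a median of 0% over all genes. Peaks covered 95.5% of the summed cluster length in WT, 94.1% in mdx and 92.2% in mdxTLR4-/-, a cluster being taken from the outer end of the first Hox gene described to that of the last. By cluster the shares in WT, mdx and mdxTLR4-/- were 91.7%, 89.6% and 82.3% for HoxA and 92.8%, 90.0% and 89.7% for HoxB, while HoxC and HoxD were covered over 97.5% or more in every list. Across the genome the WT, mdx and mdxTLR4-/- lists covered 252, 261 and 224 Mb.

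The start of the gene was inside an H3K27me3 peak for 34 Hox genes in WT, 33 in mdx and 34 in mdxTLR4-/-, that is 89.5%, 86.8% and 89.5% of them. The background for all protein-coding genes was 23.6%, 23.9% and 22.7%. The same 4 starts were outside the peaks of all 3 lists, those of Hoxa4, Hoxa5, Hoxb3 and Hoxb4. Hoxa5 is a central gene and the others are anterior. A further start, that of Hoxa13, was outside in mdx alone. By position, 8 of 11 anterior genes (paralogs 1 to 4) had a covered start in each list and 10 of 11 central genes (paralogs 5 to 8) did. Among the 16 posterior genes (paralogs 9 to 13) the count was 16 in WT, 15 in mdx and 16 in mdxTLR4-/-.

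**Figure D1:**
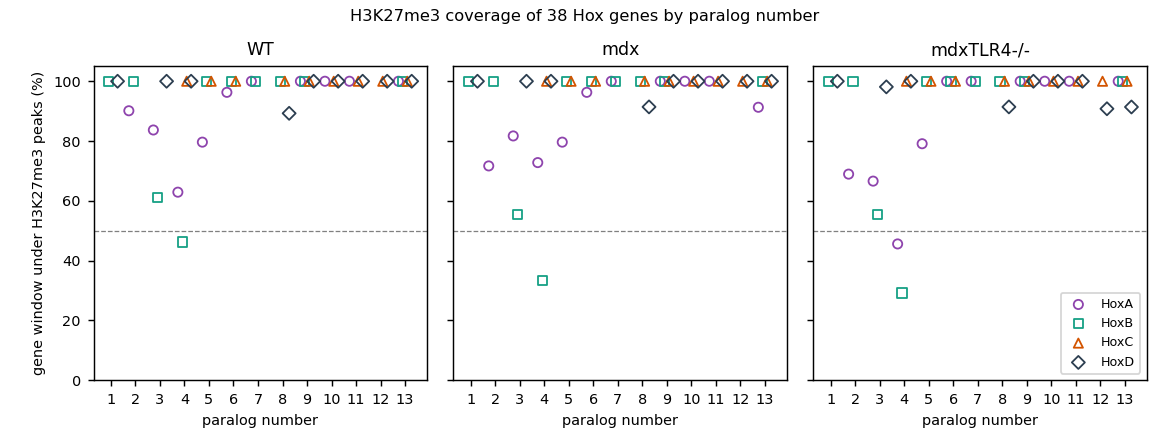
Share of each Hox gene's window under H3K27me3 peaks (%, vertical axis) against paralog number (horizontal axis), 1 panel per genotype and 1 symbol per cluster; the dashed line is the 50% used for the designation. The genes that fall away from 100% are mostly HoxA and HoxB genes of paralog numbers 2 to 5, and the lowest is Hoxb4 at 46.2%, 33.4% and 29.2% (WT, mdx, mdxTLR4-/-).

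HoxC was the most evenly covered cluster. All 9 genes, from Hoxc13 to Hoxc4, lay whole inside 1 peak in each list. In WT that peak was chr15:102892801-103151200, 258.4 kb long with 18544 reads (71.8 reads per kb). In mdx it was chr15:102860001-103151000, 291 kb with 24062 reads (82.7 per kb), and in mdxTLR4-/- chr15:102893201-103151200, 258 kb with 17759 reads (68.8 per kb). Its end on the Hoxc4 side was the same to within 200 bp in the 3 lists, whereas the other end lay further out in mdx. By length it ranked 2 of 28143 peaks in WT, 1 of 41780 in mdx and 2 of 36488 in mdxTLR4-/-.

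HoxD, whose posterior genes pattern limbs and the trunk end, was covered over 99.0%, 99.2% and 97.5% of its length. The outer start of every Hoxd gene model was inside a peak in every list. All 3 lists had a break within the Hoxd8 gene, at chr2:74704801-74705800 in WT and chr2:74705201-74706000 in mdx and mdxTLR4-/-, and 600 bp of it were common to the 3. These 600 bp overlap Hoxd8 and the antisense transcript Hoxd3os1 and held 183 CpG per kb, against 26.8 in the bases of HoxD covered in every list. Peaks covered 69.9%, 75.9% and 75.9% of the Hoxd8 body in WT, mdx and mdxTLR4-/-. Of its 3 annotated starts of protein-coding transcripts, 1 was inside a peak in WT and 3 were in mdx and in mdxTLR4-/-. The peak from Hoxd13 to the Hoxd8 start was denser than the one from Hoxd3 to Hoxd1 in WT (64.2 against 51.7 reads per kb) and mdx (91.8 against 71.1). In mdxTLR4-/- each of the 2 was split again by a gap of 800 bp, which left 4 peaks of 52.4, 72.7, 59.7 and 47.4 reads per kb in order from Hoxd13 to Hoxd1. SICER joins windows up to 600 bp apart, so that 800 bp was the shortest gap these lists could hold.

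**Figure D2:**
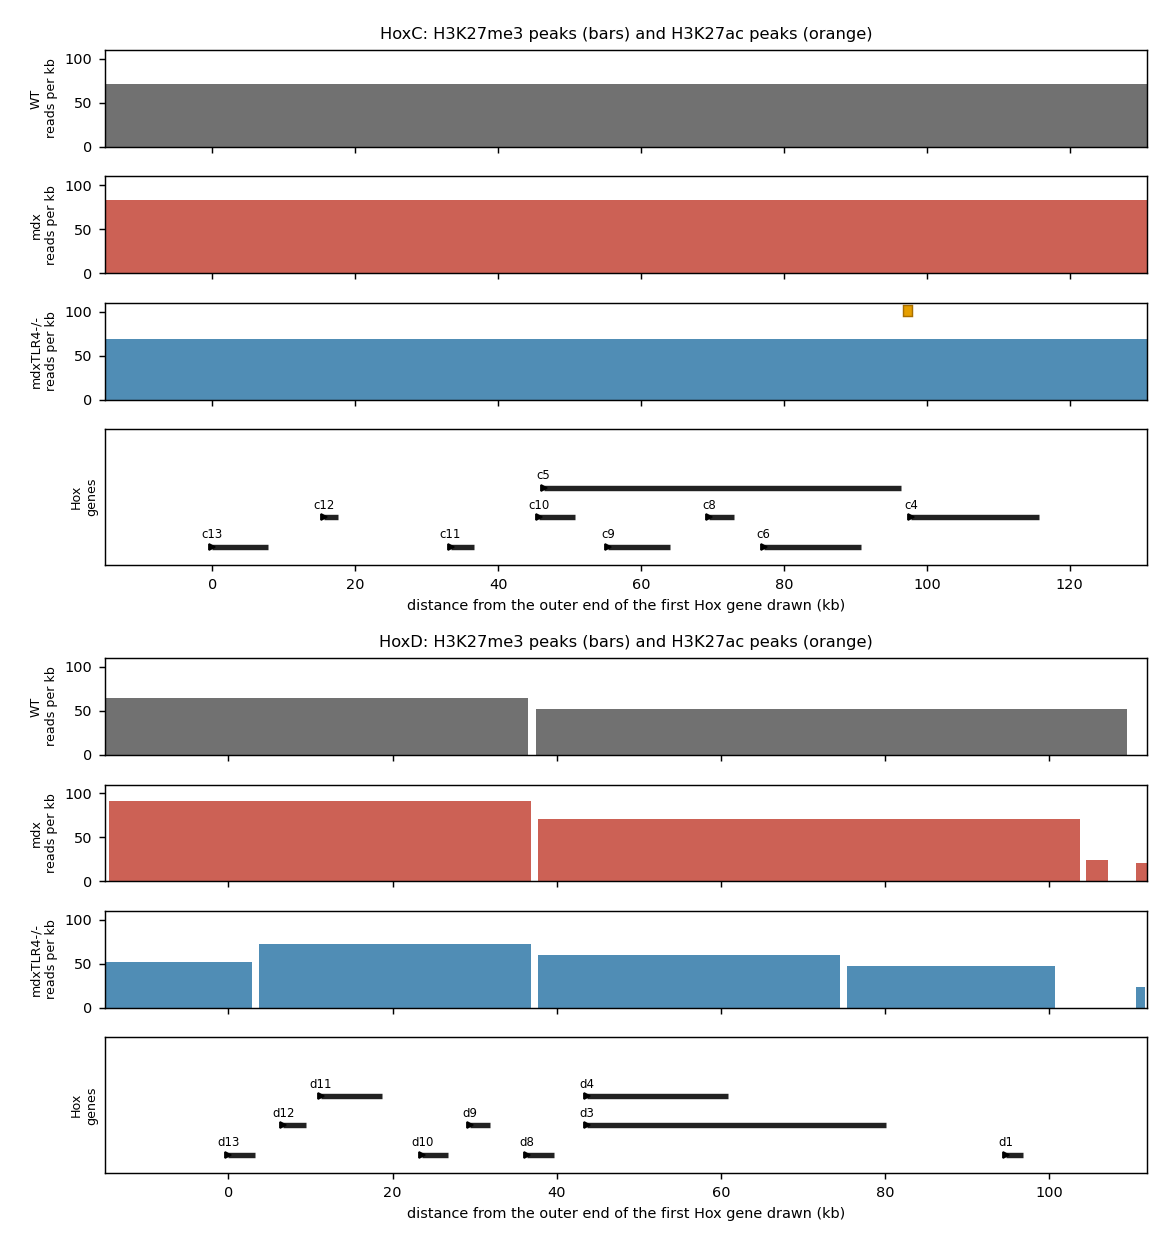
H3K27me3 peaks over HoxC (upper panels) and HoxD (lower panels) in the 3 genotypes, drawn as bars whose height is the read count per kb of the peak, with H3K27ac peaks as orange boxes at a fixed height and Hox genes below (arrowheads mark starts). Horizontal axes give the distance in kb from the outer end of the first Hox gene drawn. HoxC is under 1 bar in each genotype, and the only orange box, beside c4 in mdxTLR4-/-, holds 6 reads.

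HoxA fell into a sparse anterior and a dense posterior part that met at the Hoxa5 start. From Hoxa6 to Hoxa13 the genes were under a single dense peak in WT (chr6:52205601-52302400, 7360 reads, 76.0 per kb) and in mdxTLR4-/- (chr6:52205201-52303600, 6869 reads, 69.8 per kb). In mdx this stretch was chr6:52205601-52260400 with 5724 reads (104 per kb), followed after a gap of 0.8 kb by a second peak outside the cluster. On the other side of the Hoxa5 start, over Hoxa2 to Hoxa5, the peaks were shorter and thinner than the dense peak of the same list. There were 3 of them in WT with 21.0 to 31.0 reads per kb, 8 in mdx with 22.9 to 47.5 and 5 in mdxTLR4-/- with 18.0 to 29.6. Summed, the anterior part had 26.7, 33.0 and 27.2 reads per kb of peak, against 76.0, 104 and 69.8 in the posterior part (WT, mdx, mdxTLR4-/-). The posterior values span unlike ground. The peak ran past Hoxa13 in WT and mdxTLR4-/- and ended inside that gene in mdx, whose second peak, left out here, had 81.3 reads per kb. The Hoxa3 gene model reaches from beside Hoxa2 to between Hoxa6 and Hoxa7, so that its annotated start lies in the dense part while most of its body lies in the sparse one.

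The Hoxa5 start was in a gap of 1.8 kb in WT and mdx (chr6:52203801-52205600) and of 1.4 kb in mdxTLR4-/- (chr6:52203801-52205200). Peak edges fall on a grid of 200 bp windows, and the edge on the side of the Hoxa5 body was at the same grid position in the 3 lists. Hoxa5 itself was Increased in each, with 79.6%, 79.6% and 79.1% of its window covered. The Hoxa6 start next to it was inside the dense peak in all 3 lists. The RefSeq promoters of this pair (GRCm38.p6, minus strand, from 250 bases before the start to 50 after it) are shown because an edge of the H3K27me3 domain falls between them. CG pairs are in capitals, 29 in Hoxa5 (chr6:52204538-52204837, no base under a peak in any list) and 26 in Hoxa6 (chr6:52208623-52208922, all 300 bases under a peak in every list).
Hoxa5: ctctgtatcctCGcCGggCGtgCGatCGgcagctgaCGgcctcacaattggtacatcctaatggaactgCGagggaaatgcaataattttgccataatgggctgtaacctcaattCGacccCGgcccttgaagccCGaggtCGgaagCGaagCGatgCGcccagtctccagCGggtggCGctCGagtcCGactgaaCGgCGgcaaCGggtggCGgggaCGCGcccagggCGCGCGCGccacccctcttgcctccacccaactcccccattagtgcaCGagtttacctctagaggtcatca
Hoxa6: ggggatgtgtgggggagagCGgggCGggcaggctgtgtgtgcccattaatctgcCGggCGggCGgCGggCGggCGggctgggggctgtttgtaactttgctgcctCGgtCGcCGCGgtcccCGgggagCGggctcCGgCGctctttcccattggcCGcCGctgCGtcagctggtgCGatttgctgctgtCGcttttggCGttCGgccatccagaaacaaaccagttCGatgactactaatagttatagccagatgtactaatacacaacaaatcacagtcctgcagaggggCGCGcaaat

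Hoxa4 started in a gap of 3 kb in WT (chr6:52191201-52194200), 2.2 kb in mdx and 4.4 kb in mdxTLR4-/-, again with 1 edge at the same grid position in every list. Its window was covered over 62.9% in WT, 72.8% in mdx and 45.6% in mdxTLR4-/-. It was thus Increased in WT and mdx and not in mdxTLR4-/-, while 73.5% of its body was covered in each. So 1 of the 38 Hox genes was Increased in mdx and not in mdxTLR4-/- (background 2.05% of all genes) and 1 in WT and not in mdxTLR4-/- (2.28%), the same gene in both, and none in WT and not in mdx (1.44%). No Hox gene went the opposite way, where the background was 0.588%, 0.515% and 1.14%. With 1 gene of 38, these counts are too small to set apart from the background.

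Hoxa13, the gene of the posterior end, was the only posterior Hox gene with a start outside a peak. In mdx the nearest peaks lay 480 bp inside the gene and 321 bp upstream of its start, and the window was still covered over 91.3%. The gap between these peaks was 800 bp, the shortest these lists could hold. The peaks on either side had 104 and 81.3 reads per kb. In WT and mdxTLR4-/- its window was covered over 100%. Its RefSeq promoter (chr6:52260831-52261130, GRCm38.p6, minus strand) held 45 CpG, the most of the 24 Hox promoters in the RefSeq table used here, and 1.93% of all promoters in that table held as many. It is shown, with CG in capitals, because all of its 300 bases were under a peak in WT and mdxTLR4-/- and none in mdx.
Hoxa13: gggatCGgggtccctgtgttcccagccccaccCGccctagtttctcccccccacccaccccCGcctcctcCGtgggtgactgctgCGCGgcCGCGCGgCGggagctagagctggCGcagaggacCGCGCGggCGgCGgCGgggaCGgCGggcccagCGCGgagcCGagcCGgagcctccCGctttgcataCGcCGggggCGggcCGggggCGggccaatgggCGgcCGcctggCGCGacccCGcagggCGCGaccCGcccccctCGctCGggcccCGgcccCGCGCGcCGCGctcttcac

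**Figure D3:**
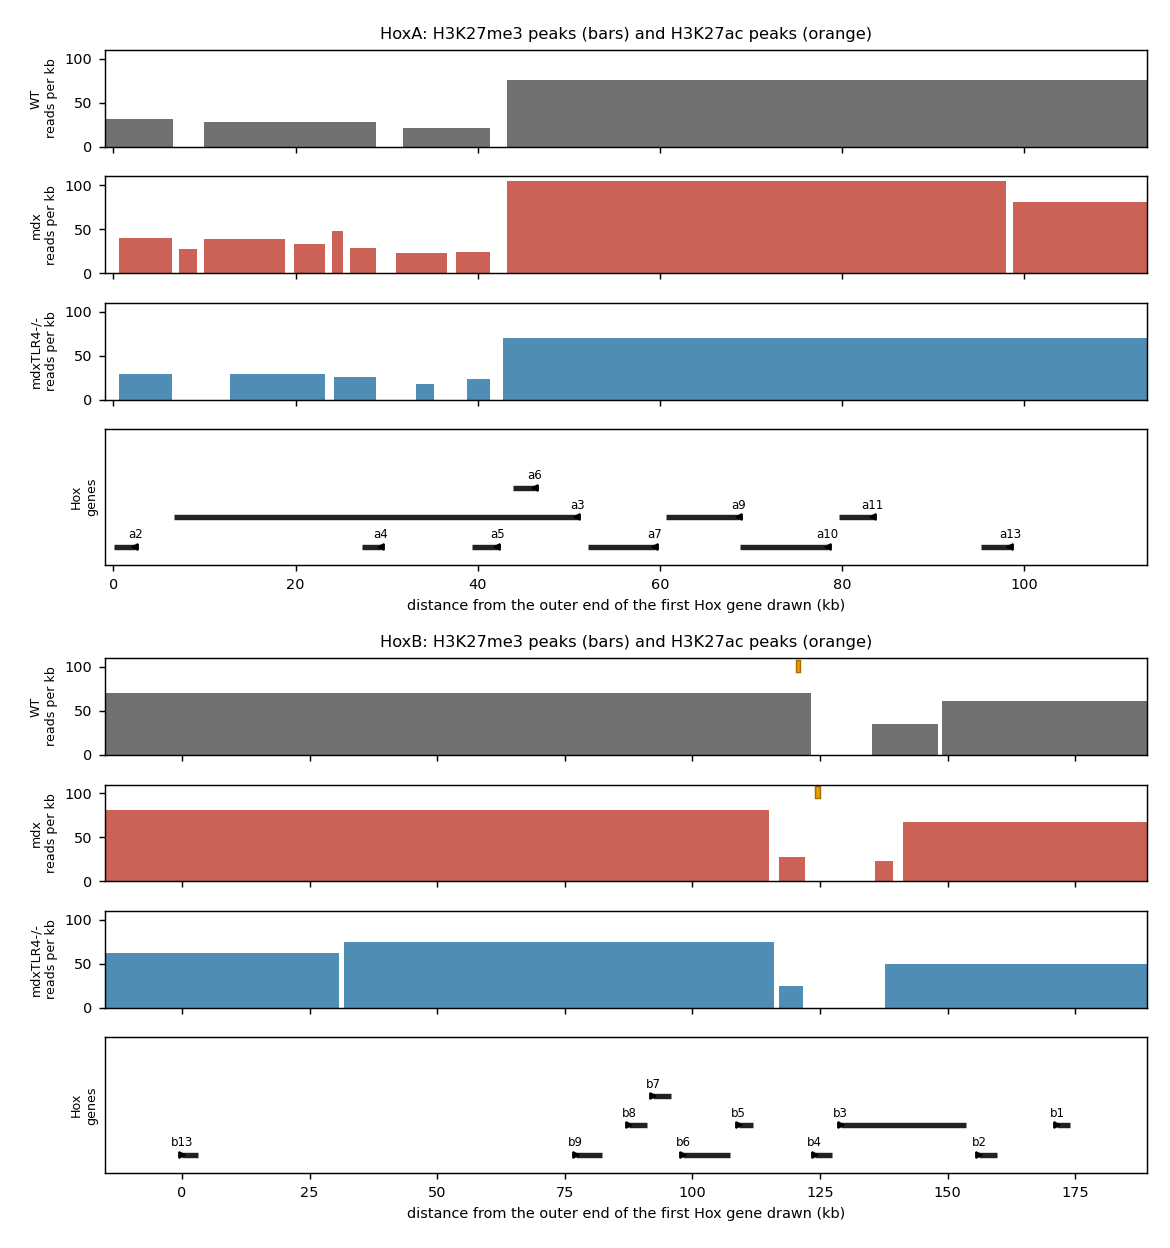
H3K27me3 peaks over HoxA (upper panels) and HoxB (lower panels) in the 3 genotypes, as bars whose height is the read count per kb of the peak, with H3K27ac peaks as orange boxes at a fixed height and Hox genes below (arrowheads mark starts). Horizontal axes give the distance in kb from the outer end of the first Hox gene drawn. Bars are low and broken from a2 to a5 (18.0 to 47.5 reads per kb) and high from a6 on, and HoxB has a wide opening at b4 and the start of b3 in every genotype.

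HoxB carried the widest opening, over Hoxb4 and the first part of Hoxb3. No base of Hoxb4, a regulator of blood stem cells, was under an H3K27me3 peak in any list. The opening ran over 11.8 kb in WT (chr11:96317601-96329400), 13.6 kb in mdx (chr11:96316401-96330000) and 16 kb in mdxTLR4-/- (chr11:96316001-96332000). The WT opening was contained in that of mdx, and that of mdx in that of mdxTLR4-/-. Hoxb4 had 46.2%, 33.4% and 29.2% of its window covered and was the only Hox gene Increased in no list. Hoxb3 had 61.2%, 55.3% and 55.3% of its window and 72.1%, 64.7% and 64.7% of its body covered, with its outer start 5726 to 8675 bp from the nearest peak on either side. Of the 3 annotated starts of its protein-coding transcripts, 1 was inside a peak in each list.

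On the posterior side of the opening, Hoxb13 to Hoxb5 lay in WT inside chr11:96118401-96317600, 199.2 kb with 13938 reads (70.0 per kb). In mdx they were inside chr11:96096201-96309400, 213.2 kb with 17296 reads (81.1 per kb). In mdxTLR4-/- a gap of 1 kb divided them into 97.2 kb over Hoxb13 (62.3 per kb) and 84.2 kb over Hoxb9 to Hoxb5 (75.0 per kb). Between Hoxb5 and Hoxb4, mdx and mdxTLR4-/- had a thin peak of their own, of 27.5 and 24.6 reads per kb. WT had no break there, and its large peak ended 667 bp from the Hoxb4 start. The thin peaks ended 1867 bp from that start in mdx and 2267 bp from it in mdxTLR4-/-, and the large peaks of these lists ended further back, at positions 96309400 and 96310200. On the anterior side Hoxb2 and Hoxb1 were covered over their whole windows, at 61.7, 67.3 and 50.3 reads per kb.

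The RefSeq promoter of Hoxb4 (chr11:96318017-96318316, GRCm38.p6, plus strand) is shown, CG in capitals, as the promoter of the only Hox gene with no base of its body under H3K27me3. None of its 300 bases was under a peak in any list, and it held 14 CpG, a number that 36.3% of all promoters in the table reach.
Hoxb4: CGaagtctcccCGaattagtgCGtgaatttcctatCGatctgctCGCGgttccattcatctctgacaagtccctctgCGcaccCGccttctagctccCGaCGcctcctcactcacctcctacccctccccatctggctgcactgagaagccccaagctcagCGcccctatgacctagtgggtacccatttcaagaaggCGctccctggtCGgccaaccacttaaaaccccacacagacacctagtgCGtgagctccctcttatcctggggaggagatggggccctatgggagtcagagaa

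**Figure D4:**
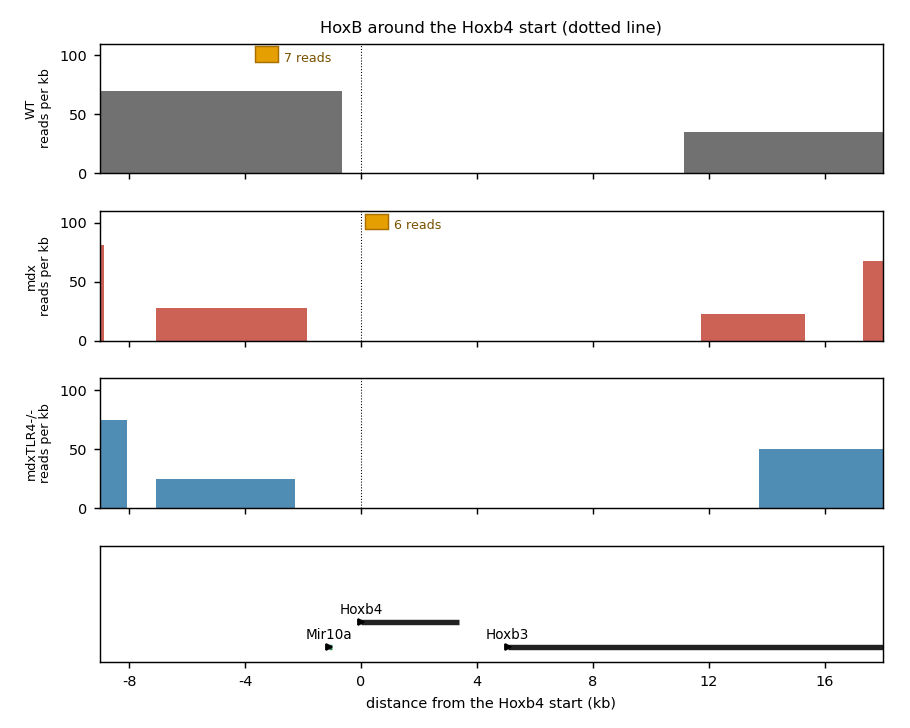
H3K27me3 peaks (bars, read count per kb of the peak) and H3K27ac peaks (orange boxes at a fixed height, with their read counts) around the Hoxb4 start, 1 row per genotype with genes below; the horizontal axis gives the distance in kb from that start. The H3K27me3-free stretch at Hoxb4 measures 11.8, 13.6 and 16 kb in WT, mdx and mdxTLR4-/-, and the H3K27ac boxes hold 7 reads in WT and 6 in mdx.

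Bases that were outside H3K27me3 peaks in all 3 lists made up 3.59% of the 4 clusters (17400 of their bases), 5.08% of HoxA, 6.78% of HoxB, 0.620% of HoxD and none of HoxC. They held 40.9 CpG per kb, against 24.0 in the 440524 bases covered in every list. The difference was large in HoxA, with 60.0 against 29.6, and small in HoxB, with 25.5 against 21.2. HoxA had 4 such gaps. Those at the Hoxa5 and Hoxa4 starts held 80.7 and 72.3 CpG per kb, whereas the other 2, which overlap the Hoxa3 gene model and at no Hox start, held 25.0 and 16.3, below the covered bases. The RefSeq promoters used here did not include those of Hoxa4 and Hoxb3, so CpG counts were at hand for only part of the uncovered starts. Whether CpG content goes with coverage was not tested. The 21 Hox promoters wholly under peaks in every list held a median of 13 CpG with a range of 4 to 37, and the other 3 were those of Hoxa5, Hoxb4 and Hoxa13 with 29, 14 and 45. Over all 32851 promoters in the table the median was 7. The table matched 22 of the 39 genes.

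Most peaks touching the clusters were longer and denser than the median peak of their list. In WT this held for 9 of 10 peaks (list medians 5.4 kb and 24.5 reads per kb) and in mdxTLR4-/- for 13 of 15 (3.4 kb and 23.7 reads per kb). In mdx, whose HoxA peaks were broken up most, it held for 8 of 16 (3.4 kb and 28.3 reads per kb), with 12 longer and 11 denser. In WT, 7 peaks held all the 34 covered starts, and 6 of these 7 were at least 20 kb long. The median density of all 7 was 64.2 reads per kb, against 37.7 for the 2348 other peaks of at least 20 kb, whose 90th percentile was 56.0. Peaks were not matched by length in this comparison. The peak over Hoxa2 had 31.0 reads per kb. The 3 WT cluster peaks that held no Hox start, of 9.6, 13 and 18.8 kb, had 21.0 to 35.2. All of these lay below that 37.7, but they were also shorter than 20 kb. Against the 24.5 of the whole WT list, the 9.6 kb peak (21.0) was lower and the others were higher. By reads, the HoxC peak ranked 3, 2 and 3 in the WT, mdx and mdxTLR4-/- lists. The longest HoxB peak ranked 8, 6 and 42. The longest HoxA peak ranked 38, 99 and 29, and the longest HoxD peak 177, 149 and 346. These ranks follow how a domain was split, as the HoxB peak of mdxTLR4-/- shows.

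**Figure D5:**
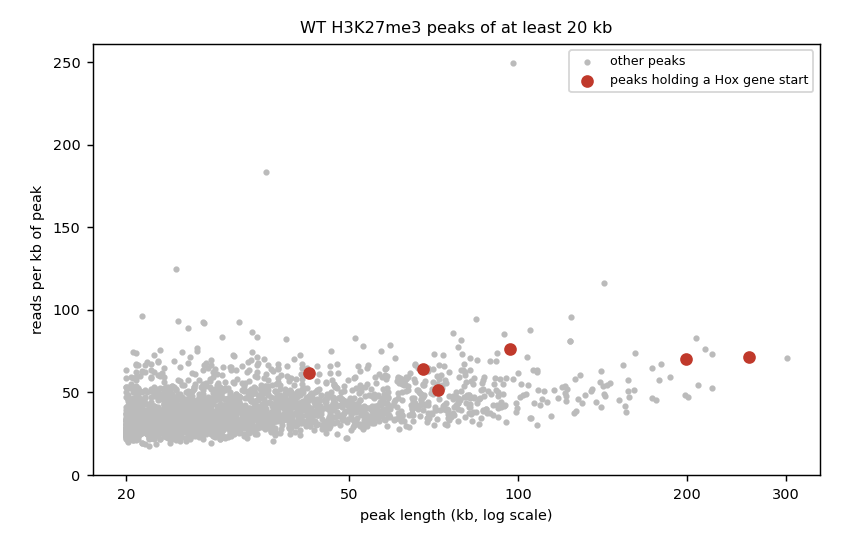
Length (kb, log scale, horizontal axis) and read density (reads per kb, vertical axis) of every WT H3K27me3 peak of at least 20 kb; red points are peaks holding a Hox gene start and grey points are the others. The 6 red points drawn run from 51.7 to 76.0 reads per kb, and a seventh peak with a Hox start, that over Hoxa2 (7.8 kb, 31.0 reads per kb), is shorter than the range drawn.

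Read density over the clusters differed between genotypes by about as much as in H3K27me3 regions at large. Summed over the peaks touching the 4 clusters it was 66.1 reads per kb in WT (51941 reads), 79.5 in mdx (61535 reads) and 64.1 in mdxTLR4-/- (47938 reads). The ratio to WT was 1.20 in mdx (95% exact Clopper-Pearson interval 1.19 to 1.22) and 0.969 in mdxTLR4-/- (0.957 to 0.981). Across the 17103 regions with a peak in all 3 lists, the median ratio to WT was 1.22 in mdx and 0.959 in mdxTLR4-/-. Divided by that median, the Hox ratios were 0.988 and 1.01, and 46.0% and 53.0% of the shared regions had a lower ratio. Scaled instead to the reads in all peaks they were 0.982 and 1.10, so the direction of both depends on the scaling.

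Between clusters the mdx ratio was 1.24 for HoxA (1.20 to 1.28), 1.15 for HoxB (1.12 to 1.17), 1.15 for HoxC (1.13 to 1.17) and 1.39 for HoxD (1.35 to 1.43). The mdxTLR4-/- ratio was 0.975 (0.945 to 1.01), 0.946 (0.926 to 0.967), 0.959 (0.940 to 0.979) and 1.02 (0.989 to 1.05). The peaks summed did not span the same ground, 139.6 kb for HoxD in WT, 117.4 kb in mdx and 124.4 kb in mdxTLR4-/-. When every peak within the outermost extent reached in any list was counted, the mdx ratio of HoxD was 1.30 and the other 3 lay between 1.23 and 1.26. HoxD thus had the highest mdx ratio in both counts, and 83.1% of shared regions lay below it in the first and 70.0% in the second.

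H3K27ac was rare at the Hox genes described. For H3K27ac a gene counted as Increased if 200 bp or more of the 5 kb before its start were under a peak. This held for 1 Hox gene in each genotype (2.63%), against 25.9%, 21.9% and 22.2% of all protein-coding genes. It was Hoxb4 in WT, Hoxb3 in mdx and Hoxc4 in mdxTLR4-/-. Each call rests on 1 peak of 6 or 7 reads, and no 2 of the 3 peaks share a base.

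At Hoxb4 the WT peak (chr11:96314601-96315400, 7 reads, exact Poisson interval 2.81 to 14.4) was 2867 bp upstream of the start and lay wholly under the WT H3K27me3 peak. The mdx peak (chr11:96318401-96319200, 6 reads, interval 2.20 to 13.1) was inside Hoxb4, 134 bp past its start and in the opening. It was this peak that counted for Hoxb3, whose upstream window takes in Hoxb4.

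In HoxC the peak of mdxTLR4-/- (chr15:103017801-103019000, 6 reads, interval 2.20 to 13.1) covered the GENCODE start of Hoxc4 and lay wholly under H3K27me3. The RefSeq promoter of Hoxc4 (chr15:103034145-103034444) lies further downstream, at another start. HoxD had no H3K27ac peak in any list. The smallest peak a list held had 5 reads, so that peaks of 6 or 7 reads are close to the limit, and a peak present in 1 list and missing from another does not show a difference between the genotypes.

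Of 38 non-protein-coding genes that lie within the clusters, H3K27me3 was Increased at 38 by the WT list, 38 by the mdx list and 37 by that of mdxTLR4-/-, against 13.0%, 12.9% and 11.0% of all non-protein-coding genes. These counts restate the coverage of the clusters. The genes lie on the same covered ground, and several short ones lie inside Hoxa11os. The bodies of 34, 33 and 32 of the 38 were covered whole, a share that was not computed for all non-protein-coding genes. Hotair in HoxC, Hottip beyond Hoxa13, Hoxa11os and Haglr beside Hoxd1, all long noncoding RNAs, were covered over 100% of their length in each list. Others wholly or partly in the sparse part of HoxA were covered less. Hoxaas3, which runs on into the dense part, was covered over 88.0%, 80.9% and 73.9% (WT, mdx, mdxTLR4-/-). Hoxaas2 was covered over 85.5%, 80.4% and 80.4%. Gm15050, an antisense gene inside Hoxa3, was covered over 100% in WT and mdx and 0% in mdxTLR4-/-, and was the 1 gene of these 38 not Increased there. Hoxd3os1, which crosses the break at Hoxd8, was covered over 92.2%, 93.8% and 93.8%.

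The clusters also hold 7 genes annotated as microRNAs, whose products include repressors of Hox messages. The share of all microRNA genes covered whole was not computed. Of the 7, 6 lay inside the cluster peaks described above and were wholly covered in every list. The exception was Mir10a, between Hoxb5 and Hoxb4, which was inside the large WT peak and in the opening of mdx and mdxTLR4-/-. Its hairpin is at chr11:96317165-96317274, close to the edge of the WT peak. Mir10b, its counterpart in HoxD, was covered in all 3 lists. The mature RNAs from RefSeq (GRCm38.p6) are shown by shared seed, bases 2 to 8 in capitals, because the products of Mir10a and Mir10b, which were covered differently, share a seed. Counted from the 5′ end, miR-10a-5p and miR-10b-5p differ by U12A, and miR-196a-5p (from Mir196a-1 in HoxB and Mir196a-2 in HoxC) and miR-196b-5p (from Mir196b in HoxA) differ by A12C.
miR-10a-5p: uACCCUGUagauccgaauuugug
miR-10b-5p: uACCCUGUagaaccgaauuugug
miR-196a-5p: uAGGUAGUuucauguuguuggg
miR-196b-5p: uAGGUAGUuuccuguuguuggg
miR-615-3p: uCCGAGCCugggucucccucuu

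The genes next to the clusters were Increased for H3K27me3 about as often as genes at large. Of the 24 protein-coding genes that are the 3 nearest on either side of each cluster, 5 were Increased in each genotype (20.8%, against 16.7%, 16.4% and 14.9% of all protein-coding genes). They were Evx1 and Evx2, homeobox genes beside the posterior ends of HoxA and HoxD, Ttll6 and Calcoco2 beside Hoxb13, and Skap1 on the Hoxb1 side. For H3K27ac 13, 11 and 10 of the 24 were Increased (54.2%, 45.8% and 41.7%, against 25.9%, 21.9% and 22.2%). Skap2, the nearest beyond the anterior end of HoxA, had no base under H3K27me3 in its window and had H3K27ac peaks with 16, 21 and 24 reads at its start. Its counterpart Skap1, an adaptor of T cells, had 94.1%, 93.2% and 88.2% of its window under H3K27me3 and no H3K27ac.

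Cofactors of the Hox factors are homeodomain proteins that bind DNA together with them. Among the 8 cofactor genes Pbx2 to Pbx4, Meis1 to Meis3, Pknox1 and Pknox2, only Meis3 was Increased for H3K27me3, with 95.4%, 100% and 100% of its window covered. This share of 12.5% was close to that of all protein-coding genes in each list (16.7%, 16.4% and 14.9%). The starts of Meis2 and Pknox2 were also inside H3K27me3 peaks in every list. H3K27ac was listed upstream of Pbx2 and Pknox1 in WT and mdx, with 12 and 6 reads at Pbx2 and 16 and 14 at Pknox1. In mdxTLR4-/- it was listed upstream of Meis1, with 11 reads. These are 25.0%, 25.0% and 12.5% of the 8 genes (WT, mdx, mdxTLR4-/-). Among all protein-coding genes the H3K27ac shares were 25.9%, 21.9% and 22.2%, so the WT and mdx counts are near the background.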

How the data were processed

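Per the labels and the study's methods, the authors trimmed reads (cutadapt 1.15), aligned them to mm10 (Bowtie2 2.3.4), merged the libraries of a genotype and called peaks against input with SICER 2.0 (window 200 bp, gap 600 bp, false discovery rate under 0.01). The deposited lists give each peak's chromosome, start, end and read count, and are not scaled to depth.

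Peaks were compared with GENCODE vM21, and gene starts are the outer 5′ ends of its gene models. Windows for H3K27me3 ran from 5 kb upstream to 1 kb past the gene, and for H3K27ac over 5 kb upstream. Reads per kb are the peak's reads over its length; ratios have exact Clopper-Pearson intervals (scipy 1.17.1). Coverage and interval code was tested on simulated data. Sequences came from RefSeq (GRCm38.p6). Members and lists were chosen with earlier results of these data known. The named genes are those with a start outside H3K27me3 in any list, a designation that differs between lists or H3K27ac nearby, and each cluster's longest peak. The results of 1 Hox gene and 1 cofactor gene are not reported here.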

Additional observations from a re-analysis of the deposited data

How the results depend on the processing

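The H3K27me3 counts of Hox genes Increased stayed between 32 and 38 under all 21 alternatives (shorter or thinner peaks left out, equal numbers of peaks per list, other shares of the window, gene body, gene start). Coverage of the clusters moved from 95.5% to 93.5% in WT and from 94.1% to 91.5% in mdx when peaks under 1.5 times the 1st percentile of density were left out, and to 91.5% in mdx with the same number of peaks per list. The density ratio to WT was 0.982 in mdx and 1.10 in mdxTLR4-/- scaled to the reads in all peaks, 1.03 and 1.06 relative to the 1st percentile, 0.988 and 1.01 relative to shared regions, and 1.25 and 0.943 with every peak within the outermost extent (chosen after seeing the data). H3K27ac counts fell to 0 in all 3 lists with peaks of at least 2 kb or at least 10 reads. They were also 0 in WT and mdx with 1 kb of the upstream window, and 0 in WT with 1 kb on either side of the start. Starts of all 61 protein-coding transcripts, added after seeing the data, were inside H3K27me3 peaks for 88.5%, 86.9% and 91.8%. No paired analysis was possible because each list pools the libraries of a genotype or, for H3K27ac in mdxTLR4-/-, rests on 1 library. Leaving out a replicate was not possible for the same reason. A stretch with no peak is one that was not called, and its reads are not in the lists.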

Other observations

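Peak edges fall on a grid of 200 bp windows, and some edges in the clusters were at the same grid position in more than 1 list. HoxA had 8 edges in WT, 18 in mdx and 12 in mdxTLR4-/-, and 2 were identical in all 3 lists, those at the Hoxa4 and Hoxa5 bodies that face their starts. HoxB, HoxC and HoxD had none identical in all 3. By pairs of lists, HoxA shared 4 edges between WT and mdx, 2 between WT and mdxTLR4-/- and 5 between mdx and mdxTLR4-/-. HoxC shared 1 of 2 between WT and mdxTLR4-/-. Between mdx and mdxTLR4-/-, HoxB shared 1 of 8 and HoxD 2 of the 4 mdx edges, and no other pair of lists shared an edge in these 3 clusters.

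Forkhead (Fox) genes, scattered developmental regulators chosen for comparison, were Increased for H3K27me3 in 26, 25 and 25 of 44 cases (59.1%, 56.8% and 56.8%). For all protein-coding genes this was 16.7%, 16.4% and 14.9%. Fox starts were covered in 27 of 44 in each list (61.4%, against 23.6%, 23.9% and 22.7% of all protein-coding genes). H3K27ac was Increased for 3 of the 44 in each (6.82%, against 25.9%, 21.9% and 22.2%). The Fox shares were set beside those of the Hox genes as a description, with no test.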
